A study of Rattus norvegicus with 8 samples.

Results

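The expression of 9 genes that make or remove reactive oxygen species was examined in rat carotid arteries after intimal injury. They were chosen by symbol from the 37209 genes of the deposited count table. The members were the phagocyte oxidase subunits Cybb, Cyba, Ncf1 and Ncf4, the vascular oxidases Nox1 and Nox4, and the antioxidant enzymes Sod3, Hmox1 and Nqo1. The samples were whole carotid arteries of male Sprague-Dawley rats, and no other treatment or genotype is named for either group. In the injured group (n = 4), a balloon catheter had been passed through the left artery and the artery was harvested 2 weeks later. The control group (n = 4) was the right artery, left undamaged, of the operated rats themselves, a self-control, so both groups had been under isoflurane. The age of the rats is not given in the labels. Each artery is 1 library, and the labels do not say which arteries came from the same rat. The main comparison therefore treated the 8 arteries as independent, although the 2 arteries of a rat are not. Its p-values set the group difference against the spread between arteries of the same group.

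NADPH oxidases pass electrons from NADPH across a membrane to oxygen and so produce superoxide or hydrogen peroxide. In phagocytes the catalytic subunit gp91phox, encoded by Cybb, sits in the membrane with p22phox, encoded by Cyba, and is switched on when cytosolic subunits, among them p47phox (Ncf1) and p40phox (Ncf4), and a Rac GTPase join it. Smooth muscle cells use the related catalytic subunits Nox1 and Nox4, of which Nox4 also pairs with p22phox but needs no cytosolic subunit. Extracellular superoxide dismutase (Sod3) removes superoxide from the matrix of the arterial wall, heme oxygenase 1 (Hmox1) breaks down heme, and Nqo1 reduces quinones. Hmox1 and Nqo1 are both known targets of the transcription factor NRF2.

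The total count lay between 11459632 and 16658089 per library. Control artery 4 stood apart from the other controls. Across genes, the correlation of its log2 CPM with theirs was 0.82 to 0.85, whereas that among control arteries 1 to 3 was 0.97. Among the injured arteries it was 0.90 to 0.97, so these were not all equally alike either. CPM is the count of a gene relative to the library total after scaling with the TMM factors of edgeR. The summed level of 5 sympathetic neuron genes, a list known from earlier results to stand out there, was 6764 CPM in control artery 4, 955 CPM in injured artery 3, 81.0 CPM in injured artery 1 and at most 3.88 CPM in the other arteries. The summed level of 6 contractile smooth muscle genes was 17283 CPM in control artery 4 and 36988 to 50154 CPM in the other controls. Each result is therefore also given without control artery 4 where that changes it. The extraction text of the labels speaks of brain tissue. Of 5 neuron and brain genes only Mbp, a myelin gene of nerves as well, passed the filter on low counts, whereas the 6 smooth muscle genes were high in every library, from 10398 CPM upwards in sum.

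Cybb and Nox1 were listed at 0 counts in all 8 arteries, and no level can be given for them. Both genes lie on the X chromosome in the RefSeq annotation of GRCr8. Of 609 protein-coding X-linked genes matched to the table by symbol, 595 were at 0 in every artery, which is 97.7%. On the autosomes 9.63% of 16023 matched genes were at 0, and the share ranged from 4.61% to 15.1% between chromosomes. The X-linked genes at 0 included Pgk1, Flna and Rpl10, which nearly every cell uses. The zeros of Cybb and Nox1 thus came with those of almost the whole chromosome and say nothing about either oxidase in the artery. The X-linked genes Atp7a, Prdx4, Maoa and Maob of the lists described further on were at 0 as well.

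**Figure D1:**
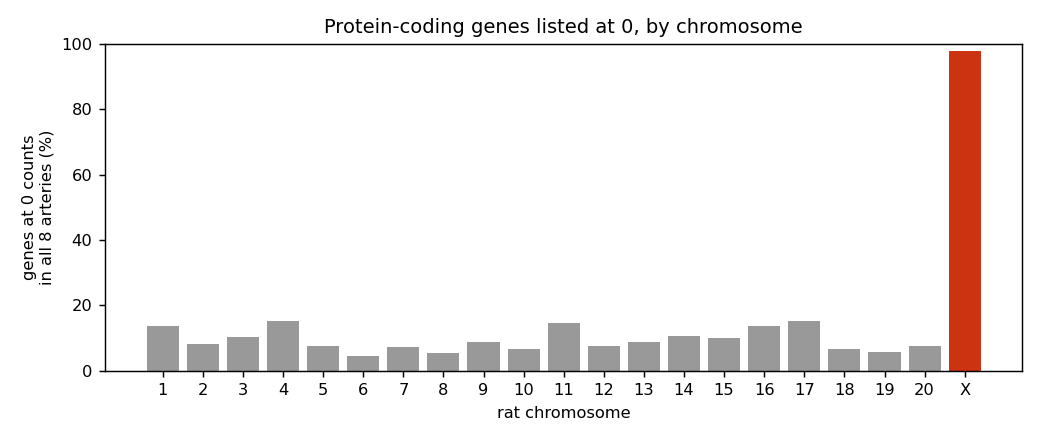
Share of protein-coding genes with 0 counts in all 8 arteries (y axis, percent) on each rat chromosome (x axis), for genes matched by symbol to RefSeq GRCr8. The X chromosome, with Cybb and Nox1, stands at 97.7%, and the highest autosome at 15.1%.

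The promoters of 6 of the 9 members were matched in RefSeq (GRCr8), each from 250 bases before to 50 bases after the start of the gene. They were searched on both strands for the core motif of PU.1, GAGGAA, a factor of myeloid cells, for the core of the antioxidant response element, TGACNNNGC, which NRF2 binds, and for the AP-1 motif TGANTCA, which can overlap that element. Among all 33469 promoters of the same length, 27.6% held the first, 12.1% the second and 7.33% the third. The windows below are shown because they hold all the matches among the members, with the motif in capitals and the sequence 5′ to 3′ on the strand of the gene.
Cybb, PU.1 core on the other strand, chrX:16065062-16065091, minus strand: tgctgttttcatTTCCTCatgaggagaagc
Cybb, AP-1, chrX:16065213-16065242, minus strand: ttacttgtgatTGAATCAcgagatcttttt
Nox1, PU.1 core, chrX:101595540-101595569, minus strand: ttccgtctacagGAGGAAggcagagtacac
Ncf1, antioxidant response element core on the other strand, chr12:28121716-28121745, plus strand: ctgccccaacGCTCTGTCAgctcaacagtc
The promoters of Cyba, Nox4 and Nqo1 held none of the 3 motifs in this window. A match describes letters only and is not evidence of binding.

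The other 7 members had at least 15 counts in every library, and all of them passed the filter on low counts. The groups were tested with edgeR (quasi-likelihood) over 14359 genes. To be called, a gene needed both a Benjamini-Hochberg adjusted p (FDR) below 0.05 and a fold change above 2. By this rule Cyba, Ncf1, Ncf4, Nox4 and Hmox1 rose after injury, and 0 members were called lower. Across all genes tested, 10.9% were called, 8.31% higher and 2.57% lower. Sod3 and Nqo1 were lower on average but were not called, although both had an unadjusted p under 0.05 in edgeR's test. DESeq2 called the same 5 members higher and Sod3 lower, against 9.61% and 3.30% of the genes it tested. Without control artery 4, 5 members were called higher and 1 lower, against 12.3% and 3.94% of all genes, and with the replicate number as a block 5 higher and 0 lower, against 6.64% and 1.63%. In 5 members every injured artery lay above every control and in Nqo1 every injured artery lay below, while 14.2% of all genes were separated in the first way and 9.51% in the second.

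**Figure D2:**
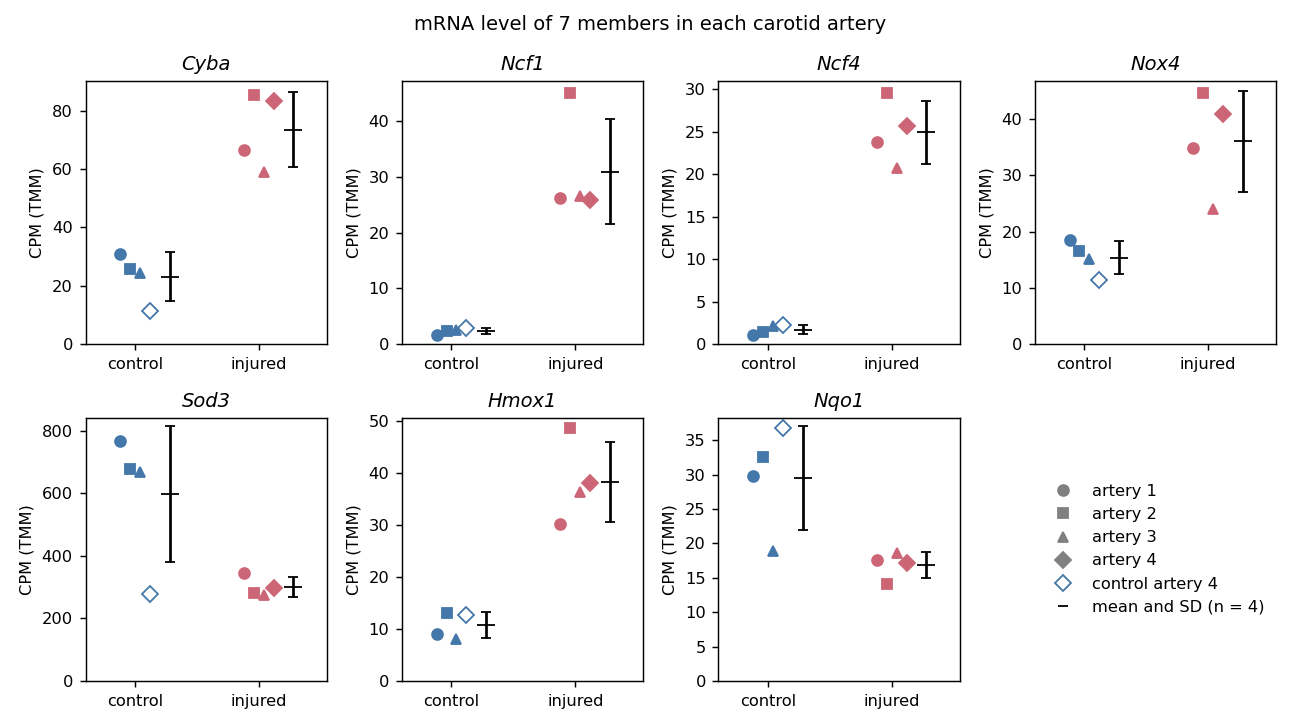
Level of each of the 7 members with counts (y axis, CPM with TMM factors, from 0) in the 4 control and 4 injured arteries, with 1 symbol per artery, the mean and the SD. Control artery 4 is drawn open. Ncf1 and Ncf4 were under 3 CPM in every control and above 20 CPM in every injured artery, and Sod3 in control artery 4 sits among the injured arteries.

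The cytosolic phagocyte subunits showed the largest changes among the members. Ncf4, which binds phosphoinositides on the phagosome, was at 1.08, 1.39, 2.15 and 2.22 CPM in control arteries 1 to 4. In injured arteries 1 to 4 it was at 23.8, 29.5, 20.7 and 25.7 CPM. The groups were far apart, and the lowest injured artery was 9.29 times as high as the highest control. The log2 fold change was 3.85 (standard error 0.28, FDR = 0.000226 from edgeR's quasi-likelihood test), a 14.5-fold rise.

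Ncf1 encodes the organizer subunit whose phosphorylation starts the assembly of the oxidase. Its level was 1.66, 2.30, 2.63 and 2.92 CPM in control arteries 1 to 4 and 26.1, 45.0, 26.5 and 25.9 CPM in injured arteries 1 to 4. Injured artery 2 was clearly higher than the other injured arteries, which lay within 1 CPM of each other. This was a log2 fold change of 3.69 (standard error 0.28, FDR = 0.000245 in edgeR's test), a 12.9-fold rise. The ratio of Ncf1 to Ncf4 within each artery, an examination chosen after the values were seen and not tested, was 0.29 to 0.70 on the log2 scale in the controls and 0.01 to 0.61 after injury, so the groups overlapped.

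Cyba, the membrane partner shared by gp91phox, Nox1 and Nox4, rose 3.17-fold. It was at 30.8, 25.9, 24.5 and 11.5 CPM in control arteries 1 to 4 and at 66.6, 85.5, 59.0 and 83.3 CPM in injured arteries 1 to 4. Control artery 4 was the lowest of the 8 and the injured arteries were all above the controls. The mean was 23.2 ± 8.27 CPM (SD, n = 4) in the controls and 73.6 ± 12.9 CPM (SD, n = 4) after injury. The log2 fold change was 1.67 (standard error 0.29, FDR = 0.00697 in edgeR's test). Without control artery 4 it was 1.44 with a smaller standard error, 0.16 (FDR = 0.000783 in edgeR's test). The ratio of Ncf1 to Cyba, also chosen after the values were seen and not tested, was -4.19, -3.47, -3.20 and -1.96 on the log2 scale in control arteries 1 to 4 and -1.35, -0.93, -1.15 and -1.69 in injured arteries 1 to 4. The cytosolic subunit was thus higher relative to the membrane subunit in every injured artery, with control artery 4 nearest to them.

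In whole arteries, more cells of a type and more RNA per cell cannot be told apart. Macrophage genes moved with the phagocyte subunits, and their part in the result was not tested. Of 11 listed macrophage genes 10 were in the table and 9 were called higher, with Cd163 as the exception. None of the 10 was at 0, and their summed level was 198 to 295 CPM in the controls and 1738 to 2630 CPM after injury. The median log2 fold change of the 10 was 2.42, and single genes ranged from 0.09 for Cd163 to 4.38 for Lyz2, the lysozyme gene. Neutrophil genes, whose cells also carry this oxidase, summed to 2.81 to 6.67 CPM in the controls and 8.26 to 25.8 CPM after injury. Of 7 listed, only 3 passed the filter on low counts, and 2 of these, S100a9 and Csf3r, were called higher. S100a9 was not called without control artery 4 (FDR = 0.0517 in edgeR's test). Elane and Camp, which mark granulocytes, did not exceed 0.288 CPM in any artery, while Mpo was at 0.432 to 4.92 CPM in the controls and 0 to 0.505 CPM after injury and was called lower by DESeq2 (FDR = 0.00134) but not tested by edgeR. B cell genes summed to at most 2.13 CPM, with Cd79a at 0. Of 5 T cell genes, only Cd4 was called higher, and rat macrophages are known to express Cd4 too. All 5 had a positive log2 fold change, with a median of 1.87. Cd3d, Cd3e and Cd3g were low, at most 3.84 CPM in any artery. Cd3e, for one, was at 0 to 0.984 CPM in the controls and 1.45 to 2.57 CPM after injury. Skeletal muscle genes also moved, with 3 of 5 called higher and a sum of 83.0 to 252 CPM in the controls and 262 to 917 CPM after injury. The part of these lists in the results was not tested.

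Relative to the summed macrophage genes, the members did not all move alike. On the log2 scale Ncf4 was at -7.58 to -6.79 in the controls and -6.48 to -6.19 after injury, and Ncf1 at -6.90 to -6.40 in the controls and -6.39 to -5.87 after injury. Both were thus higher relative to this sum in every injured artery, though for Ncf1 injured artery 4 was at -6.39 and control artery 4 at -6.40. This does not hold for each gene of the sum. Lyz2, Cd68 and Itgam had larger log2 fold changes than either subunit, 4.38, 4.08 and 3.89, and the other macrophage genes smaller ones. Cyba went the other way, from -4.42 to -2.69 in the controls to -4.94 to -4.70 after injury. Hmox1 was also lower relative to the macrophage sum, at -5.18 to -4.27 in the controls and -5.85 to -5.61 after injury. Lyz2 made up most of the macrophage sum after injury, and these ratios are descriptions with no test.

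**Figure D3:**
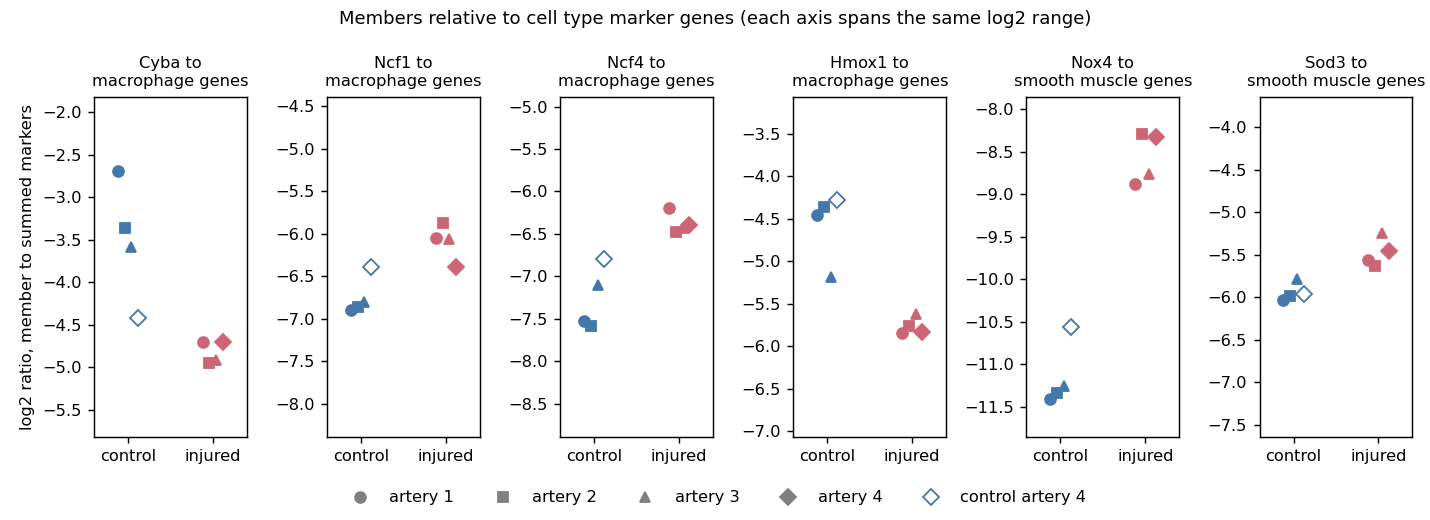
Log2 ratio of a member's CPM to the summed CPM of macrophage or smooth muscle genes (y axis, the same span in every panel) in the 4 control and 4 injured arteries, with control artery 4 drawn open. Ncf1, Ncf4, Nox4 and Sod3 were higher relative to the sum of their marker genes in every injured artery, and Cyba and Hmox1 lower.

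Nox4, the constitutively active oxidase of smooth muscle, fibroblasts and endothelium, rose 2.35-fold. It was at 18.4, 16.5, 15.2 and 11.4 CPM in control arteries 1 to 4 and at 34.9, 44.6, 24.0 and 40.8 CPM in injured arteries 1 to 4. The groups did not overlap, but injured artery 3 was only 1.30 times as high as the highest control. The log2 fold change was 1.23 (standard error 0.23, FDR = 0.0091 in edgeR's test), and 1.11 without control artery 4 (standard error 0.21, FDR = 0.0068 in edgeR's test). When the test asked for more than a fold change of 2, Nox4 was not called, with FDR = 0.615 from edgeR, and neither was Cyba, with FDR = 0.113.

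The contractile smooth muscle genes went the opposite way. Their sum was 17283 to 50154 CPM in the controls and 10398 to 16382 CPM after injury, and 4 of 6 were called lower, namely Acta2, Myh11, Tagln and Cnn1. All 6 were called lower without control artery 4, with Smtn at -1.28 and Lmod1 at -1.10 on the log2 scale. The log2 ratio of Nox4 to this sum was -11.41 to -10.57 in the controls and -8.88 to -8.29 after injury, a difference of 2.58. The ratio to the summed fibroblast genes was -7.78 to -7.22 in the controls and -6.07 to -5.27 after injury. The 5 fibroblast genes did not move alike, with 1 called higher and 2 lower and a median log2 fold change of 0.37. Single genes ranged from -1.56 to 2.16, so this ratio does not hold for each gene of the sum. Their sum was 1695 to 3343 CPM in the controls and 1326 to 2348 CPM after injury. Nox4 was therefore higher relative to both sums in every injured artery, and what part a change of cell types had in its rise was not tested. Of 5 endothelial genes, Cdh5 (log2 fold change 1.06) and Kdr (2.03) were called higher and Vwf (-1.65) lower, and their sum was 730 to 2023 CPM in the controls and 570 to 835 CPM after injury. Cdh5 fell short of the fold criterion without control artery 4, with 0.98.

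Sod3, the superoxide dismutase that is secreted and binds to the matrix, was not called on all 8 arteries. It was at 766, 677, 669 and 278 CPM in control arteries 1 to 4 and at 346, 282, 274 and 298 CPM in injured arteries 1 to 4. Control artery 4 lay within the range of the injured arteries, and the other controls were all above them. The mean was 598 ± 217 CPM (SD, n = 4) in the controls and 300.0 ± 32.1 CPM (SD, n = 4) after injury. The log2 fold change was -0.99 (standard error 0.29, FDR = 0.0526 in edgeR's test), and Sod3 was not called. Without control artery 4 the log2 fold change was -1.24 (standard error 0.11, FDR = 0.000345 in edgeR's test), and Sod3 was called lower. DESeq2 called it on all 8 arteries, with -1.01 and FDR = 0.0061. Whether Sod3 passed the criteria thus rested on control artery 4 and on the method.

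Control artery 4, with its low Sod3, was lower than the other controls in several marker sums, smooth muscle among them. Its fibroblast sum was 1695 CPM against 2873 to 3343 CPM in the other controls. Its endothelial sum was 730 CPM against 1088 to 2023 CPM. What part cell types had in its Sod3 level was not tested. The log2 ratio of Sod3 to the summed smooth muscle genes was -5.96 in control artery 4 and -6.03, -5.98 and -5.79 in control arteries 1 to 3. After injury it was -5.57, -5.63, -5.24 and -5.46 in injured arteries 1 to 4, all above the controls. Relative to the sum of the contractile genes, Sod3 was thus higher after injury by 0.47 on the log2 scale, while its mean level was lower. Its ratio to the summed fibroblast genes went the other way on average, by -0.27, at -2.61 to -1.91 in the controls and -2.76 to -2.27 after injury, and the groups overlapped. Of the 5 fibroblast genes, 1 was called higher and 2 lower, so this ratio does not describe each of them.

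Hmox1, the inducible heme oxygenase, rose 3.57-fold. It was at 9.08, 13.0, 8.11 and 12.7 CPM in control arteries 1 to 4 and at 30.1, 48.5, 36.3 and 38.0 CPM in injured arteries 1 to 4. Control artery 4 lay within the range of the other controls, and the lowest injured artery was 2.33 times as high as the highest control. Hmox1 had a log2 fold change of 1.84 (standard error 0.22, FDR = 0.00135 in edgeR's test) and 1.92 without control artery 4. Hmox1 remained called when tested against a fold change of 2 (FDR = 0.0158 in edgeR's test), as did Ncf1 and Ncf4.

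Nqo1, the quinone reductase, was not called. It was at 29.8, 32.5, 18.9 and 36.8 CPM in control arteries 1 to 4 and at 17.6, 14.1, 18.6 and 17.1 CPM in injured arteries 1 to 4. The groups were separated by the narrow gap between control artery 3 and injured artery 3. The log2 fold change was -0.81 (standard error 0.21, FDR = 0.0346 in edgeR's test), which passed the FDR but not the fold criterion. Without control artery 4, the highest of the controls, it was -0.69 (FDR = 0.0335 in edgeR's test).

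The difference was positive for Hmox1 and negative for Nqo1. The log2 ratio of Hmox1 to Nqo1 within each artery, which does not depend on the scaling of the libraries, was -1.71, -1.32, -1.22 and -1.53 in control arteries 1 to 4. It was 0.78, 1.78, 0.96 and 1.15 in injured arteries 1 to 4, a mean difference of 2.61. The exact permutation test over all 70 relabellings gave p = 0.0286, two-sided, and no smaller p is possible with groups of 4. Hmox1 alone and Nqo1 alone already separated the groups, in opposite directions. The ratio therefore had to separate them, and its p was fixed by those values and adds no support. This was the only ratio tested, since the other 5 planned ratios needed Cybb or Nox1.

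**Figure D4:**
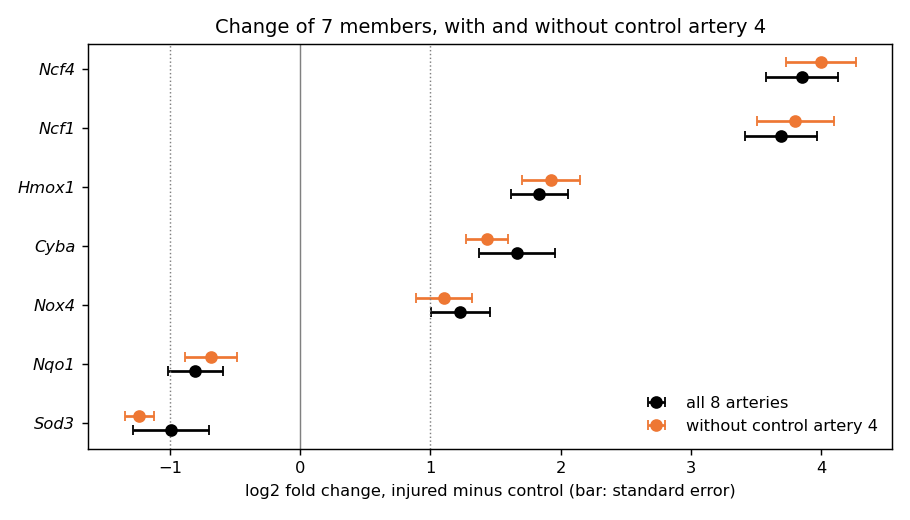
Log2 fold change between injured and control arteries (x axis, positive where the mRNA was higher after injury) of the 7 members with counts, with standard error bars, for all 8 arteries and without control artery 4. The dotted lines mark a fold change of 2, and Sod3 passes that line only without control artery 4.

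Across the injured arteries the members shared an order in part. Injured artery 2 had the highest level of Cyba, Ncf1, Ncf4, Nox4 and Hmox1 and the lowest of Nqo1. Injured artery 3 had the lowest level of Cyba, Ncf4, Nox4 and Sod3 and the highest of Nqo1. Injured artery 2 also had the highest macrophage sum, and injured artery 3 the lowest smooth muscle sum and the highest sympathetic sum of the injured arteries. Among the controls, artery 4 was lowest for Cyba, Nox4 and Sod3 and highest for Ncf1, Ncf4 and Nqo1.

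The genes whose pattern over the 8 arteries was most like each member were found by the root mean square difference of log2 CPM after each gene's mean was subtracted, among 12899 other genes. Nearest to Ncf4 was Selplg at 0.05, followed by Ncf1 at 0.23. Nearest to Ncf1 were Lcp1 at 0.21 and Ncf4 at 0.23. Each of this pair of subunits was thus the second nearest gene of the other. Nearest to Cyba were Thbs2 at 0.13 and Ezh2 at 0.15, and to Nox4 Stxbp2 at 0.14 and Slc6a6 at 0.14. Hmox1 was nearest to Ahr at 0.17 and Dok5 at 0.18. Sod3 was nearest to Pbxip1 at 0.07 and LOC100910872 at 0.09, and Nqo1 to Usmg5 at 0.09 and Cox6c at 0.13. These distances describe these arteries, and a shared group difference alone makes a distance small.

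The other genes of the pathway were taken from 5 lists. Among the genes named from them, Rac1, Duoxa2, Nox3, Noxo1, Noxa1, Prdx1, Ccs, Me1, Blvra, Ftl1, Slc40a1, Xdh and Aoc3 were picked after their values were seen. Of 14 oxidase partners and relatives, 13 were in the table, 9 were tested, 5 were called higher and 0 lower, with 5 and 0 at an unadjusted p under 0.05 in edgeR's test. DESeq2 also called 5 higher and 0 lower. Over all genes tested, edgeR called 8.31% higher and 2.57% lower, and DESeq2 9.61% and 3.30%. The median log2 fold change of the 9 was 1.34, against -0.06 for all genes tested. Rac2, the Rac GTPase of blood cells, was at 2.88 to 5.13 CPM in the controls and 35.9 to 42.3 CPM after injury, a log2 fold change of 3.30. The widely expressed Rac1 was not called, at 293 ± 13.3 CPM (SD, n = 4) in the controls and 247 ± 22.8 CPM (SD, n = 4) after injury.

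The dual oxidase genes, which produce hydrogen peroxide, were called higher at low levels. Duox1 was at 0.625 to 1.46 CPM in the controls and 3.65 to 5.88 CPM after injury, with a log2 fold change of 2.24. Duox2 and the maturation factor Duoxa1 followed with 1.34 and 1.77. These genes lie side by side on a chromosome in GRCr8, and none of them overlaps another annotated gene. Hmox1 overlaps 1 annotated gene there, and Rac2 and Nos1 overlap 2 each, and as the strand setting is not known their counts could include reads of these. Nox3 was listed at 0, Noxo1 and Noxa1, which serve Nox1, had 16 and 3 counts in all, and Duoxa2 had 20.

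The next list held enzymes that remove superoxide and peroxides. Of 24 genes for superoxide dismutases and their copper supply, catalase, glutathione peroxidases, peroxiredoxins and thioredoxins, 21 were tested, 1 was called lower and 0 higher, with 6 and 1 at an unadjusted p under 0.05 in edgeR's test. DESeq2 likewise called 1 lower and 0 higher. Over all genes tested 10.9% were called, so 1 of 21 is too small a count to set the list apart. The median log2 fold change of the 21 was -0.22. The gene called was Gpx3, the secreted glutathione peroxidase, at 1073, 1213, 965 and 565 CPM in control arteries 1 to 4 and 519, 379, 335 and 423 CPM in injured arteries 1 to 4. Its log2 fold change was -1.21 (standard error 0.26, FDR = 0.0154 in edgeR's test). Gpx3 was not called without injured artery 2 or injured artery 4, at an FDR of at most 0.0569 in edgeR's test, and was called without control artery 4 with -1.39. The cytosolic dismutase Sod1 had a log2 fold change of -0.58, the mitochondrial Sod2 -0.30, catalase (Cat) -0.59 and Gpx1 -0.09, and none of these passed the FDR. The peroxiredoxin Prdx1 passed the FDR but not the fold criterion, with -0.74, and Ccs, the copper chaperone of Sod1, likewise with 0.95. Without control artery 4 Ccs was called higher, with 1.19 (FDR = 0.000795 in edgeR's test).

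**Figure D5:**
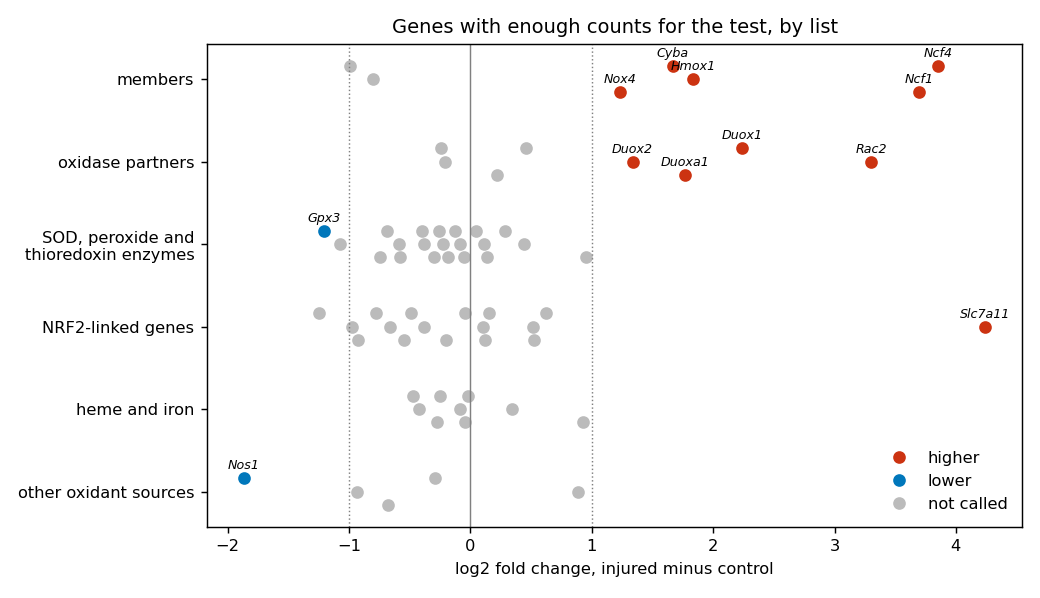
Log2 fold change between injured and control arteries (x axis) of the tested genes, by list, with 1 oxidase partner not shown (y axis, points spread vertically for legibility only), with genes called higher in red, called lower in blue and not called in grey. The called genes shown are named, and 10.9% of all genes were called, so 0 or 1 call in a list of 5 to 21 genes is no result about that list.

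Another list held genes linked to NRF2. Of 21 listed, 17 were tested, 1 was called higher and 0 lower, with 3 and 6 at an unadjusted p under 0.05 in edgeR's test, and their median log2 fold change was -0.20. As 10.9% of all genes were called, 1 of 17 does not set this list apart either. DESeq2 called 1 higher and 1 lower, the lower being Me1. The gene called by both was Slc7a11, the cystine carrier that feeds glutathione synthesis, at 0.072, 1.15, 1.18 and 0.139 CPM in control arteries 1 to 4 and 2.63, 13.3, 9.83 and 22.6 CPM in injured arteries 1 to 4. Its log2 fold change was 4.24 (standard error 0.95, FDR = 0.0192 in edgeR's test), and it was not called without injured artery 2 or injured artery 4. NRF2 itself (Nfe2l2) had a log2 fold change of -0.05 and its inhibitor Keap1 0.11. The glutathione synthesis subunits Gclc and Gclm had -0.55 and -0.92, Srxn1 -0.20 and Txnrd1 0.15, and none of the 4 was called. Of these, Gclc passed the FDR but not the fold criterion. Srxn1 was at 75.5 CPM in control artery 4 and 8.80 to 14.2 CPM in the other controls. After injury it was at 46.1 CPM in injured artery 3 and 13.0 to 19.2 CPM in the other injured arteries. Without control artery 4, Srxn1 turned to 1.13, Gclm had -0.39 and Txnrd1 0.40, and none of them passed the FDR.

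Of 10 genes of heme and iron handling, 9 were tested and 0 were called by edgeR or DESeq2, with 2 higher and 1 lower at an unadjusted p under 0.05 in edgeR's test. As edgeR called 10.9% of all genes and DESeq2 12.9%, 0 of 9 does not set this list apart. Hmox2, the constitutive heme oxygenase, was at 45.1 ± 8.92 CPM (SD, n = 4) in the controls and 43.7 ± 3.50 CPM (SD, n = 4) after injury and was not called. The biliverdin reductase Blvra had a log2 fold change of -0.02, the ferritin chain Ftl1 0.34 and the iron exporter Slc40a1 0.93, and none of these passed both criteria.

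Of 8 genes for other sources of oxidants, 5 were tested, 1 was called lower and 0 higher, with 2 and 1 at an unadjusted p under 0.05 in edgeR's test and the same counts of calls by DESeq2. With 10.9% of all genes called by edgeR, 1 of 5 is too small a count to set this list apart. The gene called was Nos1, the neuronal nitric oxide synthase, at 11.2, 21.4, 13.3 and 6.53 CPM in control arteries 1 to 4 and 2.81, 2.54, 2.19 and 6.87 CPM in injured arteries 1 to 4. Its log2 fold change was -1.87 (standard error 0.48, FDR = 0.0331 in edgeR's test). The groups overlapped, and Nos1 was called in only 2 of the 8 fits that left out an artery, those without control artery 4 and without injured artery 4. The endothelial synthase Nos3 had a log2 fold change of -0.29 and was not called, and the inducible Nos2 had 38 counts in all and was not tested. Xanthine dehydrogenase (Xdh) passed the FDR but not the fold criterion, with 0.89. Without control artery 4, the amine oxidase Aoc3 was also called lower, with -1.19 (FDR = 0.00106 in edgeR's test).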

How the data were processed

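RNA of 4 injured and 4 control carotid arteries was sequenced, and the authors deposited raw read counts per gene, 1 column per artery. HISAT2 2.0.4 is named in the submitters' processing notes, while the counting tool, strand setting, genome build and annotation are not given in the sources used here. Genes with low counts were removed with filterByExpr, libraries were scaled with TMM factors, and groups were compared over 14359 genes with the quasi-likelihood test of edgeR 4.0.16 in R 4.3.3, without covariates and with Benjamini-Hochberg adjustment (FDR). The criteria, FDR under 0.05 and a fold change above 2, follow the study's methods. DESeq2 1.42.0 was an alternative, as were other scalings, filters and thresholds and leaving out each artery. Log2 ratios used a prior of 0.5 counts. On simulated counts with 200 genes changed 4-fold, edgeR recovered 98.5% with 6 false calls among 14219 genes tested. Every simulated gene had a dispersion, the spread beyond counting error, of 0.1, and no simulated artery stood apart. These rates therefore do not describe the real arteries, among which control artery 4 stood apart. A count of 0 allows up to 3 counts, or 0.18 to 0.262 CPM depending on the library, which covers counting error only. Of 23154 protein-coding RefSeq genes 16641 were matched by symbol. The genes named were the members, the genes called in the pathway lists (some list genes are not reported here), a set of central enzymes and, for each member, the 2 nearest genes with an average log2 CPM over 1. The members and lists were chosen with earlier results of these data known.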

Additional observations from a re-analysis of the deposited data

Results flagged for a closer look

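Dixon's test at the 95% level was applied to 38 sets of 4 arteries and set apart 4 arteries by their distance from the nearest other artery, as a share of the range. Chance sets apart about 1 in 20. Ncf1 in injured artery 2 was at 45.0 CPM with its nearest neighbour at 26.5 CPM, a gap of 0.966 of the range. Nos1 in injured artery 4 was at 6.87 CPM with its nearest neighbour at 2.81 CPM, a gap of 0.867 of the range. The summed sympathetic neuron genes were at 6764 CPM in control artery 4, with the next control at 3.88 CPM (gap 1.00 of the range), and at 955 CPM in injured artery 3, with the next injured artery at 81.0 CPM (gap 0.916 of the range). This list was taken up because earlier results had shown it to stand out in these arteries, so both values describe that choice and are no independent sign. Control artery 4 and injured artery 3 are also the arteries with the lowest Cyba, Nox4 and Sod3 of their groups, and the part of nerve tissue in those values was not tested.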

How the results depend on the processing

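Cyba, Ncf1, Ncf4, Nox4 and Hmox1 were called in all 8 fits that left out an artery, with log2 fold changes of 1.44 to 1.83, 3.46 to 3.80, 3.68 to 4.00, 1.11 to 1.38 and 1.70 to 1.93. Sod3 ranged from -1.24 to -0.86 and was called only without control artery 4, so that 5 to 6 members were called. Nqo1 ranged from -0.97 to -0.69 and was never called. Sod3 was also called with DESeq2 (-1.01) and with RLE factors (-1.01). Tested against a fold change of 2, Cyba (1.67) and Nox4 (1.23) lost their call, leaving 3 members. The ratio of Hmox1 to Nqo1 ranged from 2.41 to 2.74 when an artery was left out, each time at p = 0.0571 in the exact permutation test, the smallest that 3 against 4 allows. Since each of these genes alone separated the groups, this p was fixed by their values. Scaling by library totals alone moved the median of all genes by 0.175 on the log2 scale and turned no member's direction.

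Of all genes, 1562 were called, 1193 higher and 369 lower. Leaving out an artery gave 1142 to 2398 calls, 945 to 1817 higher and 197 to 581 lower, with the highest counts without control artery 4. At least 10 counts in every sample gave 1007 (715 higher), FDR alone 2468 (918 lower) and the test against a fold change of 2 gave 661 (600 higher, 61 lower). DESeq2 called 2150 of 16652 genes.

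Among the lists, the test against a fold change of 2 left 3 oxidase partners and 0 genes for peroxide enzymes, NRF2 and other oxidant sources. FDR alone gave 3 peroxide enzymes, 4 NRF2 genes, 1 heme and iron gene and 2 other sources. Library totals gave 2 peroxide enzymes, 1 heme and iron gene and 2 other sources. NRF2 genes numbered 2 with DESeq2 and 0 with at least 10 counts in every sample. Leaving out an artery gave 0 to 2 peroxide enzymes, 0 to 2 NRF2 genes, 0 to 1 heme and iron genes and 0 to 2 other sources, so these counts rest on single arteries. The cause of these shifts was not tested.

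The labels do not tie the numbers to rats, so the numbers were not taken as pairs. Deviations from the group mean had correlations of 0.26, 0.40, -0.46 and -0.39 between same-numbered arteries. Control artery 4 and injured artery 3, which both stood apart in their sympathetic genes, had 0.76. With groups of 4 that hold such arteries, these correlations cannot decide whether equal numbers share a rat. With the replicate number as a block the same 5 members were called, 234 genes were called lower, 0 peroxide enzymes and 0 other sources were called, and Duox2, Gpx3 and Nos1 lost their calls (FDR = 0.0551, 0.0549 and 0.11 in edgeR's test). Of the 6 smooth muscle genes 1 was called lower with the block. The blocked ratio of Hmox1 to Nqo1 was 2.61, with p = 0.125 in the exact sign-flip test, the smallest that 4 pairs allow. The separation of both genes fixed this p as well.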
